A study of Mus musculus with 17 samples.

Results

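Zinc and copper transport and handling was followed through 34 genes in bone marrow RNA of leukaemic mice, with and without knockdown of the zinc-binding protein metallothionein 1. The genes are the 10 zinc exporters of the Slc30a family, the 14 zinc importers of the Slc39a family, the zinc-sensing transcription factor Mtf1, and 9 genes of copper transport and delivery. They were chosen by symbol alone and make up 34 of 56305 gene identifiers in the count tables. All 34 were found, in 36 rows, because Slc30a1 and Slc30a4 are listed under 2 identifiers each.

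The Mt1ko group carried Dnmt3aR878H/+;Npm1cA/+ with CRISPR-Cas9 knockdown of Mt1, and the control group carried Dnmt3aR878H/+;Npm1cA/+ without it. Both groups were C57BL/6 bone marrow with acute myeloid leukaemia, so the Dnmt3a and Npm1 alleles were shared by every sample and their effect was not measured. The labels name the Mt1 perturbation both a knockdown and Mt1ko, and the age of the mice, the delivery of Cas9 and any sorting or pooling of cells were not stated in the labels. Of 17 libraries, 9 were labelled Mt1ko and 8 control, each as a technical replicate, and the authors summed them into Mt1ko samples 4-6, 10-12 and 16-18 and control samples 1-3, 7-9 and 14-15. Nothing states that the 6 summed samples came from separate animals, so p-values here reflect only how these 6 differ among themselves, part of which may be technical.

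Free zinc in the cytosol is kept very low. Slc39a proteins move zinc into the cytosol from outside the cell or from organelles, Slc30a proteins move it out of the cytosol, and metallothioneins bind what remains. When zinc is plentiful, MTF1 binds metal response elements in DNA and activates the metallothionein genes and Slc30a1 in mouse cells. Copper enters through CTR1, the product of Slc31a1, and is then handed by chaperones to copper-pumping ATPases, to superoxide dismutase and to cytochrome oxidase.

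Library totals ranged from 27124722 to 38645072 counts, and summed samples held 64247249 to 106407001 counts. Mt1 stood at 172, 67.8 and 80.7 CPM (the count relative to the total of its sample, scaled by TMM) in Mt1ko samples 4-6, 10-12 and 16-18, against 353, 441 and 359 CPM in control samples 1-3, 7-9 and 14-15. Every Mt1ko sample was below every control sample, with a log2 fold change of -1.85 (SE 0.34), although the adjusted p of edgeR's quasi-likelihood test was 1.00. Library 6, labelled Mt1ko, held 326.2 CPM of Mt1, where the other 8 libraries labelled Mt1ko held 41.8 to 87.2 CPM and the control libraries 347.5 to 471.3 CPM. Libraries 10 to 12 stood apart in quality: 21.9% to 30.2% of their counts were mitochondrial ribosomal RNA, against 4.58% to 11.2% in all other libraries, and they detected 11548 to 13174 genes, against 14823 to 17739. The 8 mast cell and basophil markers summed to 309, 3990 and 128 CPM in Mt1ko samples 4-6, 10-12 and 16-18, and to 177, 636 and 494 CPM in control samples 1-3, 7-9 and 14-15. The 8 megakaryocyte markers summed to 198, 288 and 252 CPM in Mt1ko samples 4-6, 10-12 and 16-18, and to 183, 104 and 159 CPM in control samples 1-3, 7-9 and 14-15, and theirs was the only marker sum of 8 in which every Mt1ko sample lay above every control. Its part in the results on zinc and copper genes was not tested. Stroma and endothelium markers summed to 18.4, 91.2 and 14.9 CPM in Mt1ko samples and to 17.2, 24.2 and 23.7 CPM in control samples, in the same order, led by Pecam1 at 89.0 CPM in Mt1ko 10-12. Monocyte and macrophage markers summed to 7743 to 8488 CPM in Mt1ko samples and 6830 to 9705 CPM in control samples. Neutrophil markers (183 to 295 CPM in Mt1ko and 211 to 315 CPM in control samples) and erythroid markers (61.5 to 94.97 CPM in Mt1ko and 48.3 to 119 CPM in control samples) overlapped. B cell markers reached at most 0.81 CPM and T and NK cell markers at most 0.32 CPM in sum, so these lineages of normal marrow were near 0.

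No zinc or copper handling gene passed the test between Mt1ko and control samples. Of the 34 genes, 28 passed the filter on low counts, and 0 of 28 were called at an adjusted p under 0.05 by edgeR's quasi-likelihood test with Benjamini-Hochberg adjustment, against a background of 0% of 16666 genes tested. At an unadjusted p under 0.05, 0 of 28 passed, against 1.03% of all genes tested. DESeq2 and limma-voom also called 0 members, and DESeq2 called 1 gene of 16666, Mt1 itself. In 0 of 28 did the 3 Mt1ko and 3 control samples separate without overlap, against 7.1% of all genes tested (2.74% with Mt1ko above and 4.36% with Mt1ko below). The log2 fold change was above 0 in 14 of 28 members and in 48.3% of all genes tested, and its median was -0.0045 over the members and -0.01 over all genes tested. With upper quartile scaling, 11 of 28 members and 44.5% of all genes tested were above 0. Without Mt1ko sample 10-12, 22 of 29 tested members were above 0, against 49.7% of all genes, with a members' median of 0.08, and still 0 were called. With library 6 left out of its sum, 15 of 28 members were above 0 and 0 were called.

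For the well-expressed members the intervals bounded the difference between these summed samples only. They cannot bound an effect of the knockdown in mice, because the summed samples may not come from separate animals. The Mt1ko sums also include a library with Mt1 close to the control level, and a sample that stood apart in quality. All 15 members whose average log2 CPM was at least 5 had a 95% interval of the log2 fold change that lay within 1 unit of 0, as had 94.6% of the 4955 genes tested at that level. Below that level the interval did so in 5 of 13 members (Slc30a1, Slc30a6, Slc39a3, Slc39a13 and Sco1) and in 24.5% of 11711 genes. For the other 8 (Slc30a2, Slc39a2, Slc39a4, Slc39a8, Slc39a10, Slc39a11, Atp7b and Ccs), the interval reached beyond 1 unit in at least 1 direction, so a 2-fold difference in that direction was not excluded. The RNA is from bulk marrow, where fewer cells of a type and less RNA per cell cannot be told apart.

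**Figure D1:**
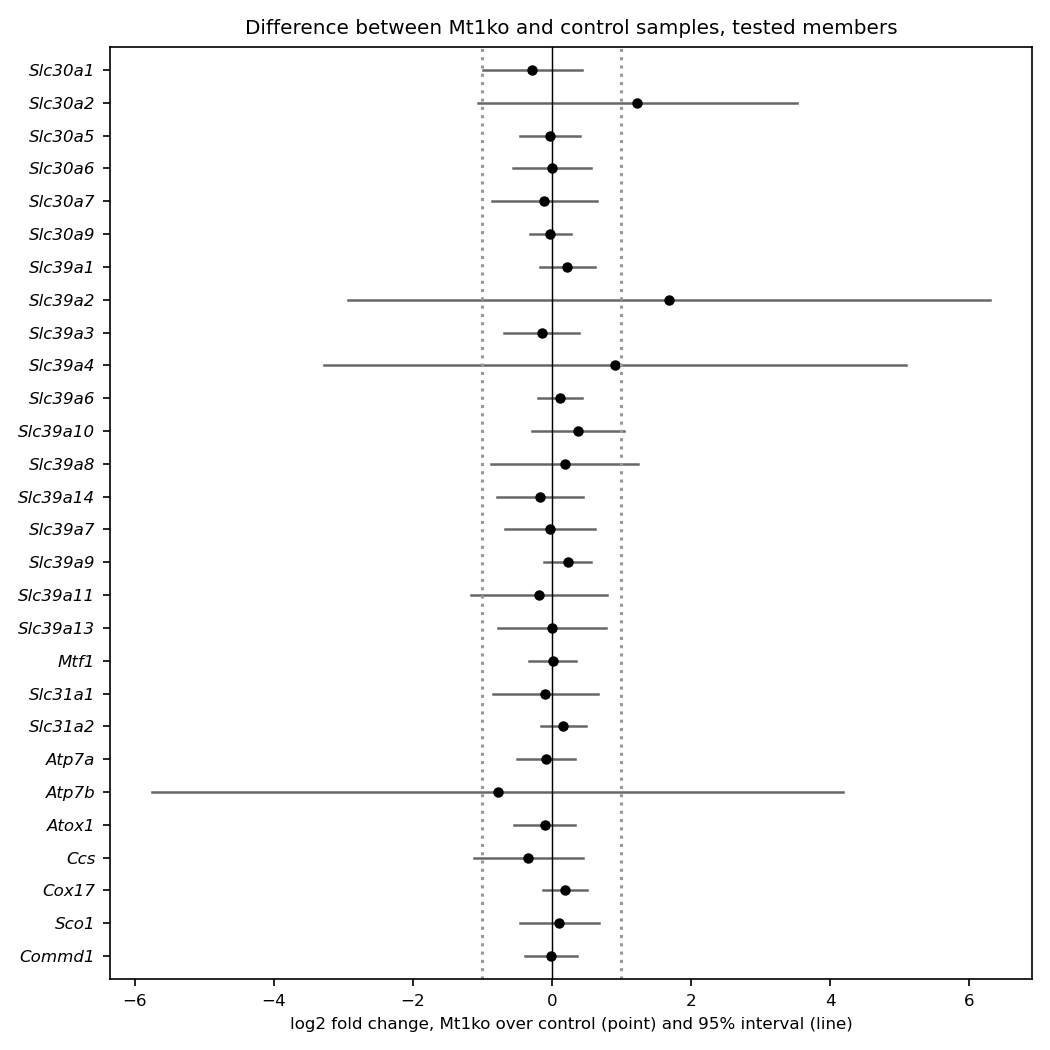
Log2 fold change of Mt1ko over control samples (x axis, points) with 95% intervals (lines) for the 28 tested zinc and copper genes, with dotted lines at 1 unit either side of 0. All 28 intervals include 0; those of Slc39a2, Slc39a4, Slc30a2 and Atp7b are the widest.

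Slc30a1 encodes ZnT1, the main exporter of zinc at the plasma membrane. The gene (ENSMUSG00000037434, chr1:191906767-191913247, plus strand, GRCm38) stood at 11.6, 6.49 and 8.89 CPM in Mt1ko samples 4-6, 10-12 and 16-18, against 12.0, 8.87 and 12.0 CPM in control samples 1-3, 7-9 and 14-15. The groups overlapped, and sample 10-12 was the lowest of the 6. Slc30a1 averaged 9.01 ± 2.57 CPM in Mt1ko samples and 10.9 ± 1.79 CPM in control samples (SD, n = 3 each), a log2 fold change of -0.28 (SE 0.30, 95% interval -0.99 to 0.43; edgeR adjusted p = 1.00). Without sample 10-12 the log2 fold change was -0.09, and without Mt1ko 4-6 it was -0.51. The second identifier of Slc30a1 held identical counts in every library, as in 230 of 318 symbols with several counted identifiers, and whether each row holds all or part of the gene's reads was not stated by the submitters' notes. If the rows are parts, Slc30a1 averaged 18.0 ± 5.15 CPM in Mt1ko samples and 21.9 ± 3.58 CPM in control samples, with the same fold change.

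Because Slc30a1 is a known MTF1 target, the promoters of the members were searched for the core of the metal response element. The core was spelled TGCACNC or TGCGCNC and sought on both strands in the 250 bases before each RefSeq transcription start (GRCm38.p6). RefSeq promoters were matched for 28 of 34 members, with 34 starts. A core was present in 16 of 34 member promoters (47.1%), in 14 members, against 21.4% of 32851 promoters of all genes. The 16 include both starts of Commd1 and of Slc39a11. They also include promoters of Slc30a3 and Slc30a10, which had 0 counts in all 17 libraries. The shares were not matched for base composition, so they do not show an enrichment among the members. At least 2 cores were present in 4 member promoters, against 5.17% of all promoters. The promoters of Slc30a1 and of the copper ATPase gene Atp7a are shown because the first is the textbook target and the second carries a pair of cores close together. The window of Slc30a1 is chr1:191906531-191906780, that of Atp7a is chrX:106026974-106027223, both on the plus strand, read 5′ to 3′ towards the start. Capitals mark each core as it reads on the gene's strand; all 3 lie on the opposite strand, so the letters are the reverse complement of the spelling above.
Slc30a1: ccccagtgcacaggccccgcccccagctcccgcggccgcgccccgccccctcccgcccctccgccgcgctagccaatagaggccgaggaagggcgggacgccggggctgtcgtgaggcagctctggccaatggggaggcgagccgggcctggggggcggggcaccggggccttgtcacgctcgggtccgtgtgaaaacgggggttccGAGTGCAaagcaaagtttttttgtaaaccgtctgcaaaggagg
Atp7a: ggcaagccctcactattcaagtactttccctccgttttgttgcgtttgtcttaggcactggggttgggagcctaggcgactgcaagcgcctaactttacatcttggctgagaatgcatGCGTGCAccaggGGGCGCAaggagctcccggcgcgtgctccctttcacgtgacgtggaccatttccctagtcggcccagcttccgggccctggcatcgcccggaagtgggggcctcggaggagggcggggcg
The core of Slc30a1 began 43 bases before the start, and those of Atp7a 132 and 120 bases before it. The promoter windows of Mtf1, Slc31a1, Slc39a1, Slc39a7, Slc39a9 and Slc39a10 held no match to these letters. Bases after the start were not searched, so an element there would be missed. A match is a string of letters and no measured binding, and the values of Atp7a below, like those of Slc30a1, overlapped between the groups.

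The exporters of the early secretory pathway, which load zinc into enzymes that are folded there, overlapped between the groups. Slc30a5 (ZnT5) stood at 61.4, 47.0 and 55.2 CPM in Mt1ko samples 4-6, 10-12 and 16-18, against 57.0, 43.9 and 65.5 CPM in control samples 1-3, 7-9 and 14-15. Slc30a7 (ZnT7) stood at 61.1, 31.6 and 64.5 CPM in Mt1ko samples, in the same order, against 71.7, 36.7 and 60.9 CPM in control samples. Both genes were lowest in Mt1ko 10-12 and control 7-9, so the low samples lay in both groups. Slc30a6 (ZnT6), which forms a complex with ZnT5, lay between 8.43 and 9.43 CPM in Mt1ko samples and between 8.56 and 9.29 CPM in control samples. Slc30a9, which encodes a zinc exporter of mitochondria, stood at 57.9, 56.4 and 58.2 CPM in Mt1ko samples 4-6, 10-12 and 16-18, against 60.8, 62.2 and 52.1 CPM in control samples 1-3, 7-9 and 14-15. Its 3 Mt1ko values lay within the range of the controls, and the interval of its log2 fold change, -0.32 to 0.28, was the narrowest among the exporters.

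The remaining exporters were rare or undetected. Slc30a2 (ZnT2, an exporter into vesicles) stood at 1.41, 3.35 and 0.43 CPM in Mt1ko samples 4-6, 10-12 and 16-18, against 0.31, 0.94 and 0.96 CPM in control samples 1-3, 7-9 and 14-15. Its highest value was in Mt1ko 10-12, from 201, 65 and 0 counts in libraries 10, 11 and 12. That sample also had the highest mast cell marker sum, whose part in the result was not tested. Slc30a3 and Slc30a8, the zinc loaders of synaptic vesicles and insulin granules, and the manganese exporter Slc30a10 had 0 counts in all 17 libraries, where 3 counts would be 0.028 to 0.045 CPM in a summed sample. Slc30a4, another vesicular exporter, had 2 counts in a single control library and 0 in the others. Over the 6 tested exporters 2 log2 fold changes were above 0 and 4 below, with a median of -0.02.

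Slc39a1 and Slc39a6 encode importers of the plasma membrane. Slc39a1 (ZIP1) stood at 94.8, 73.2 and 95.4 CPM in Mt1ko samples 4-6, 10-12 and 16-18, against 84.9, 61.9 and 79.1 CPM in control samples 1-3, 7-9 and 14-15. Slc39a6 (ZIP6, the partner of ZIP10) stood at 93.7, 80.1 and 87.5 CPM in Mt1ko samples, against 85.7, 84.0 and 71.0 CPM in control samples. In both genes the groups overlapped, and Mt1ko sample 10-12 was the lowest of its group. Without that sample both lay above every control, as did 8.76% of all genes tested then, and neither passed the test. The log2 fold change over all samples was 0.22 for Slc39a1 (95% interval -0.18 to 0.62) and 0.12 for Slc39a6 (-0.19 to 0.43).

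Slc39a10 encodes ZIP10, a plasma membrane importer that MTF1 represses in mouse liver. The gene (ENSMUSG00000025986, chr1:46807544-46892852, minus strand, GRCm38) stood at 13.1, 21.3 and 11.4 CPM in Mt1ko samples 4-6, 10-12 and 16-18, against 12.8, 11.2 and 11.1 CPM in control samples 1-3, 7-9 and 14-15. Sample 10-12 stood high, and the other 2 Mt1ko samples lay close to the controls, with overlap. Slc39a10 averaged 15.2 ± 5.29 CPM in Mt1ko samples and 11.7 ± 0.97 CPM in control samples (SD, n = 3 each), a log2 fold change of 0.38 (SE 0.29, 95% interval -0.28 to 1.04; edgeR adjusted p = 1.00). Without sample 10-12, which also held the high mast cell marker sum and mitochondrial ribosomal RNA share, the log2 fold change was 0.06.

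Slc39a14 encodes ZIP14, which carries zinc, iron and manganese. The gene (ENSMUSG00000022094, chr14:70303469-70351425, minus strand, GRCm38) stood at 129.9, 69.6 and 123.2 CPM in Mt1ko samples 4-6, 10-12 and 16-18, against 147, 91.2 and 125 CPM in control samples 1-3, 7-9 and 14-15. The lowest value of each group came from samples 10-12 and 7-9, and the groups overlapped. Slc39a14 averaged 108 ± 33.1 CPM in Mt1ko samples and 121 ± 28.1 CPM in control samples (SD, n = 3 each), a log2 fold change of -0.17 (SE 0.27, 95% interval -0.79 to 0.45; edgeR adjusted p = 1.00). Without sample 10-12 its direction turned, to 0.06. It was -0.0078 without control 1-3, -0.34 without control 7-9, -0.33 without Mt1ko 4-6 and -0.28 without Mt1ko 16-18. Its close relative Slc39a8 (ZIP8) was rare, at 2.54 to 4.61 CPM in Mt1ko samples and 3.00 to 3.93 CPM in control samples. Slc39a3 (ZIP3) stood at 11.4, 9.62 and 12.2 CPM in Mt1ko samples 4-6, 10-12 and 16-18, against 11.6, 13.7 and 11.4 CPM in control samples 1-3, 7-9 and 14-15, with overlap.

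The importers of internal membranes return zinc from organelles to the cytosol. Slc39a7 (ZIP7, of the endoplasmic reticulum) stood at 117, 79.0 and 123.4 CPM in Mt1ko samples 4-6, 10-12 and 16-18, against 124, 67.9 and 134 CPM in control samples 1-3, 7-9 and 14-15. Slc39a11 (ZIP11) stood at 25.3, 7.04 and 20.4 CPM in Mt1ko samples, against 22.004, 17.3 and 20.8 CPM in control samples. Samples 10-12 and 7-9 were the 2 lowest in both genes. Slc39a13 (ZIP13) lay between 5.81 and 11.9 CPM in Mt1ko samples and between 7.82 and 10.5 CPM in control samples, and its exons overlap those of Psmc3 on the opposite strand, which averaged 53.8 CPM. The libraries were made with a stranded kit, but the strand setting of the counting was not stated. Whether these counts separate the reads of such pairs is therefore not known.

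Slc39a9 encodes ZIP9, a zinc transporter of the Golgi and plasma membrane, and had the smallest unadjusted p among members with a log2 fold change above 0. The gene (ENSMUSG00000048833, chr12:80643883-80683342, plus strand, GRCm38) stood at 56.0, 62.5 and 51.2 CPM in Mt1ko samples 4-6, 10-12 and 16-18, against 53.5, 43.6 and 47.8 CPM in control samples 1-3, 7-9 and 14-15. The lowest Mt1ko sample lay below the highest control, so the groups overlapped. Slc39a9 averaged 56.6 ± 5.66 CPM in Mt1ko samples and 48.3 ± 5.00 CPM in control samples (SD, n = 3 each), a log2 fold change of 0.23 (SE 0.14, 95% interval -0.11 to 0.57; edgeR adjusted p = 1.00). Its exons overlap those of Erh on the opposite strand, which averaged 45.1 CPM. The other importers were near the floor: Slc39a2 and Slc39a4 stayed at or under 2.14 and 1.45 CPM in all samples, Slc39a12 at or under 0.42 CPM and Slc39a5 at or under 0.038 CPM. Over the 12 tested importers 8 log2 fold changes were above 0 and 4 below, with a median of 0.15.

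**Figure D2:**
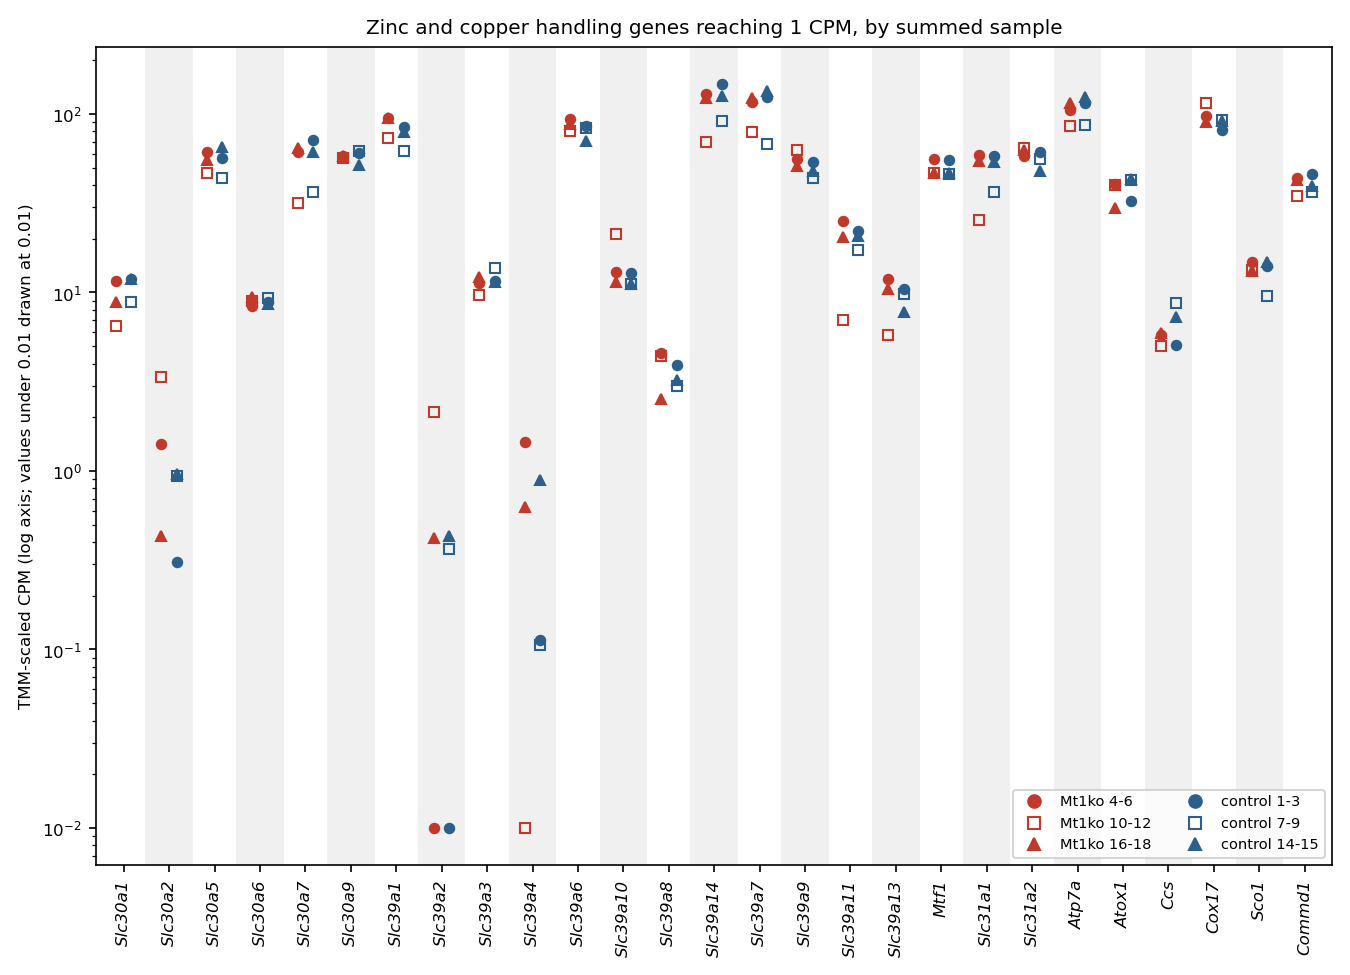
TMM-scaled CPM (log y axis) of the 27 genes that reached 1 CPM in a summed sample, with Mt1ko samples in red left of control samples in blue and a symbol for each sample. Open squares mark Mt1ko 10-12 and control 7-9, which lie below the other samples of their groups in genes such as Slc30a7, Slc39a14 and Slc31a1; Slc39a10 is high in Mt1ko 10-12.

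Mtf1 encodes the zinc-sensing factor that drives the metallothionein genes. The gene (ENSMUSG00000028890, chr4:124802104-124849800, plus strand, GRCm38) stood at 55.8, 46.9 and 46.5 CPM in Mt1ko samples 4-6, 10-12 and 16-18, against 55.3, 46.0 and 46.6 CPM in control samples 1-3, 7-9 and 14-15. Each group had a high sample and a lower pair, and the groups overlapped over nearly their whole range. Mtf1 averaged 49.7 ± 5.25 CPM in Mt1ko samples and 49.3 ± 5.17 CPM in control samples (SD, n = 3 each), a log2 fold change of 0.01 (SE 0.15, 95% interval -0.33 to 0.35; edgeR adjusted p = 1.00). Its sign changed with the sample left out, between -0.08 without Mt1ko 4-6 and 0.10 without control 1-3.

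Copper transporters and pumps overlapped between the groups. Slc31a1 (CTR1, the copper importer) stood at 59.1, 25.5 and 54.7 CPM in Mt1ko samples 4-6, 10-12 and 16-18, against 58.3, 36.4 and 53.9 CPM in control samples 1-3, 7-9 and 14-15. Slc31a2 (CTR2, its relative of internal membranes) stood at 58.2, 64.2 and 62.7 CPM in Mt1ko samples, against 61.4, 55.7 and 47.7 CPM in control samples. The first was lowest in samples 10-12 and 7-9, whereas the second was highest in 10-12 on the TMM scale. Atp7a, the copper pump that acts in most tissues outside the liver, stood at 105, 85.6 and 115 CPM in Mt1ko samples 4-6, 10-12 and 16-18, against 115, 86.6 and 124 CPM in control samples 1-3, 7-9 and 14-15. Atp7b, the pump of liver cells, lay at or under 0.48 CPM in Mt1ko samples and 0.70 CPM in control samples. Commd1, whose product binds both pumps, stood at 43.7, 34.6 and 42.9 CPM in Mt1ko samples, against 46.3, 36.3 and 39.6 CPM in control samples.

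The copper chaperones differed in direction among themselves, within the spread. Cox17, which carries copper to mitochondrial cytochrome oxidase (ENSMUSG00000046516, chr16:38346991-38352763, plus strand, GRCm38), stood at 96.9, 115 and 89.9 CPM in Mt1ko samples 4-6, 10-12 and 16-18, against 81.6, 92.1 and 91.3 CPM in control samples 1-3, 7-9 and 14-15. The groups overlapped, with sample 10-12 highest. Cox17 averaged 101 ± 13.0 CPM in Mt1ko samples and 88.3 ± 5.83 CPM in control samples (SD, n = 3 each), a log2 fold change of 0.19 (SE 0.14, 95% interval -0.13 to 0.51; edgeR adjusted p = 1.00), and of 0.08 without sample 10-12. Ccs, the chaperone of superoxide dismutase 1 (ENSMUSG00000034108, chr19:4825366-4839332, minus strand, GRCm38), stood at 5.76, 4.98 and 5.89 CPM in Mt1ko samples, against 5.06, 8.71 and 7.24 CPM in control samples. Control 1-3 lay among the Mt1ko samples, below 2 of them. Ccs averaged 5.55 ± 0.49 CPM in Mt1ko samples and 7.00 ± 1.84 CPM in control samples (SD, n = 3 each), a log2 fold change of -0.34 (SE 0.34, 95% interval -1.13 to 0.45; edgeR adjusted p = 1.00). For Ccs it was -0.15 without control 7-9 and -0.52 without control 1-3. Atox1, which hands copper to the pumps, stood at 40.6, 39.8 and 29.7 CPM in Mt1ko samples 4-6, 10-12 and 16-18, against 32.5, 42.6 and 43.3 CPM in control samples 1-3, 7-9 and 14-15. Sco1, which passes copper from COX17 to cytochrome oxidase, stood at 14.8, 13.3 and 13.2 CPM in Mt1ko samples, against 14.0, 9.61 and 14.7 CPM in control samples. Over the 9 copper genes, all tested, 3 log2 fold changes were above 0 and 6 below, with a median of -0.09.

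Levels can be set side by side between genes only per length. In CPM per kilobase of exon, Atox1 averaged 67.8 ± 11.3 in Mt1ko samples and 73.0 ± 11.2 in control samples (SD, n = 3 each). On the same scale Slc39a7 averaged 41.1 ± 9.25 in Mt1ko samples and 42.1 ± 13.8 in control samples, and Slc39a1 averaged 37.1 ± 5.34 in Mt1ko samples and 31.9 ± 5.07 in control samples. Slc31a2 averaged 30.4 ± 1.55 CPM per kilobase in Mt1ko samples and 27.0 ± 3.38 in control samples. Slc39a6 averaged 21.4 ± 1.67 CPM per kilobase in Mt1ko samples and 19.7 ± 1.98 in control samples, and these 5 genes led in the same order in both groups. Cox17, Atp7a, Slc31a1, Slc39a14, Slc30a5 and Commd1 followed, in that order in both groups. The annotated exons of Cox17 cover its whole gene, 5773 bases, against 541 bases for Atox1. Before division by length, Cox17 averaged 88.3 CPM and Atox1 39.5 CPM in control samples. Their order therefore rests on these lengths, and a shorter Cox17 transcript would place it higher. The exporter with the highest mean per length was Slc30a5, at 7.47 ± 0.99 in Mt1ko samples and 7.61 ± 1.49 CPM per kilobase in control samples.

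**Figure D3:**
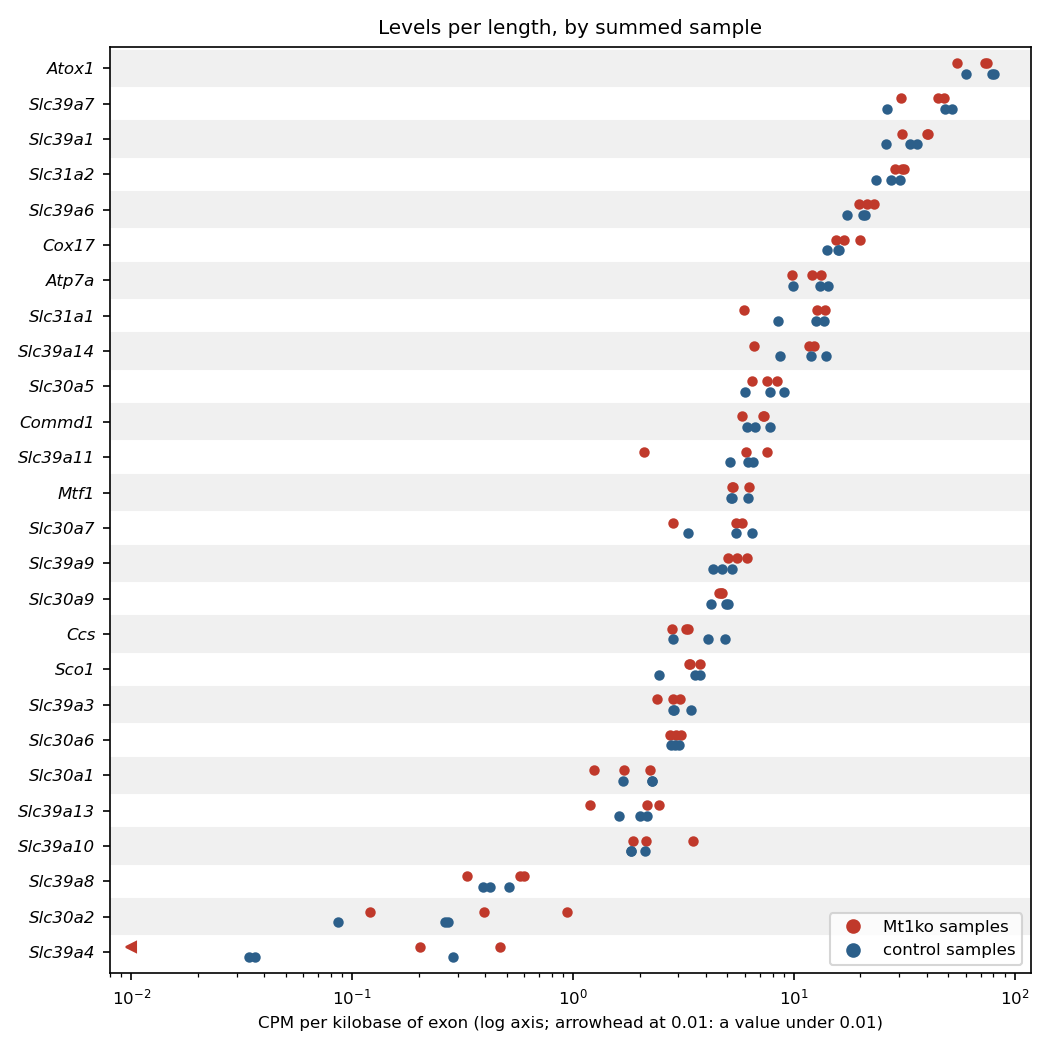
CPM per kilobase of exon (log x axis) for the 26 members with a control mean of at least 0.1, ordered by control mean; each point is a summed sample, Mt1ko in red above control in blue. Atox1 leads at 54.9 to 75.0 in Mt1ko samples and 60.1 to 80.1 in control samples, and Slc39a8, Slc30a2 and Slc39a4 lie under 1 in every sample.

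Most neighbours in this order did not differ beyond their spread. Of 25 neighbouring pairs, the control samples did not overlap in 6: Atox1 over Slc39a7, Slc31a2 over Slc39a6, Slc39a6 over Cox17, Slc30a6 over Slc30a1, Slc39a10 over Slc39a8, and Slc39a8 over Slc30a2. Slc30a1 stood at rank 21 with 2.09 CPM per kilobase in control samples, and at rank 17 with 4.17 CPM per kilobase if its 2 identifiers are summed. With the longest annotated transcript as the length, the first 4 kept their order in control samples, Cox17 moved to rank 5 at 23.9 ± 1.58 CPM per kilobase, Slc39a14 to rank 6 at 23.7 ± 5.49 and Slc39a6 to rank 8 at 20.7 ± 2.08. Slc30a5 still led the exporters, at 13.6 ± 1.81 CPM per kilobase in Mt1ko samples and 13.9 ± 2.71 in control samples.

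The same pair of samples, from different groups, lay lowest in many members. Mt1ko 10-12 and control 7-9 were together the 2 lowest of 6 samples in 12 of 28 members (Slc30a1, Slc30a5, Slc30a7, Slc39a1, Slc39a4, Slc39a7, Slc39a11, Slc39a14, Slc31a1, Atp7a, Atp7b and Commd1) and in 20.3% of all genes tested. Atp7b and Slc39a4 are in this count on values near the floor. Atp7b had 0 counts in both samples, and Slc39a4 had 0 in Mt1ko 10-12 and 11 in control 7-9, as in control 1-3. Another 6 of 28 (Slc39a10, Slc31a2, Slc39a9, Cox17, Slc30a2 and Slc39a2) were highest in Mt1ko 10-12, as were 27.6% of all genes tested. These ranks use TMM-scaled values, and the factor of 0.852 raises those of Mt1ko 10-12. Unscaled, Slc31a2 held 45.3 to 63.1 CPM in libraries 10 to 12 and 55.8 to 69.5 CPM in libraries 16 to 18. Libraries 8 to 12, all of this pair, held the highest shares of mitochondrial ribosomal RNA, up to 30.2% in Mt1ko 10-12 and 11.2% in control 7-9. Library 7, also of control 7-9, held 6.03%, below the 6.31% of library 15 of control 14-15. The mast cell marker sums of the pair, at 3990 and 636 CPM, were the highest of their groups. Some single markers of other kinds also set this pair apart, in both directions. Mrc1, a macrophage marker, stood at 19.9 CPM in Mt1ko 10-12 and 12.2 CPM in control 7-9, where the other 4 samples held 164 to 305 CPM. Elane, of immature neutrophils, stood at 1.37 CPM in Mt1ko 10-12 and 6.71 CPM in control 7-9, where the others held 27.04 to 80.02 CPM. Pf4, of megakaryocytes, stood at 31.5 CPM in Mt1ko 10-12 and 47.1 CPM in control 7-9, where the others held 113 to 214 CPM. Other markers of the same lists were highest in the pair. Lyz2, of monocytes and macrophages, stood at 4589 CPM in Mt1ko 10-12 and 5644 CPM in control 7-9, against 2238 to 3111 CPM. Itga2b, of megakaryocytes, stood at 184 CPM in Mt1ko 10-12 and 41.1 CPM in control 7-9, against 9.18 to 23.5 CPM. Cd68, of macrophages, lay within the range of the other samples in both. The part of any of these in the levels of the members was not tested.

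Libraries within Mt1ko 10-12 disagreed with each other in many members, as they did in many genes. Among the 19 members that averaged at least 10 CPM, the highest library was over 2 times the lowest in 12 within Mt1ko 10-12, against 51.7% of 8203 genes at that level. The other summed samples had 0 to 2 such members each, against 3.10% to 14.5% of the same genes. Sco1 had 471, 0 and 590 counts in libraries 10, 11 and 12, where 3 counts in library 11 would be 0.090 CPM. Slc31a1 had 97, 885 and 1048 counts in the same libraries, and Slc30a1 had 32, 232 and 252. Library 10 was low in Slc31a1 and Slc30a1 but not in Sco1. Slc39a6 had 2516, 962 and 2889 counts, Slc39a10 had 708, 230 and 754, and Slc30a5 had 1535, 1610 and 588 counts in libraries 10, 11 and 12. The high Slc39a10 value of this sample came from libraries 10 and 12, at 23.6 and 25.2 CPM, and not from library 11, at 6.90 CPM. In each of these 6 genes the 95% counting interval of the low library lay below those of the other 2. Such intervals cover counting error only, since PCR copies are not independent molecules.

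**Figure D4:**
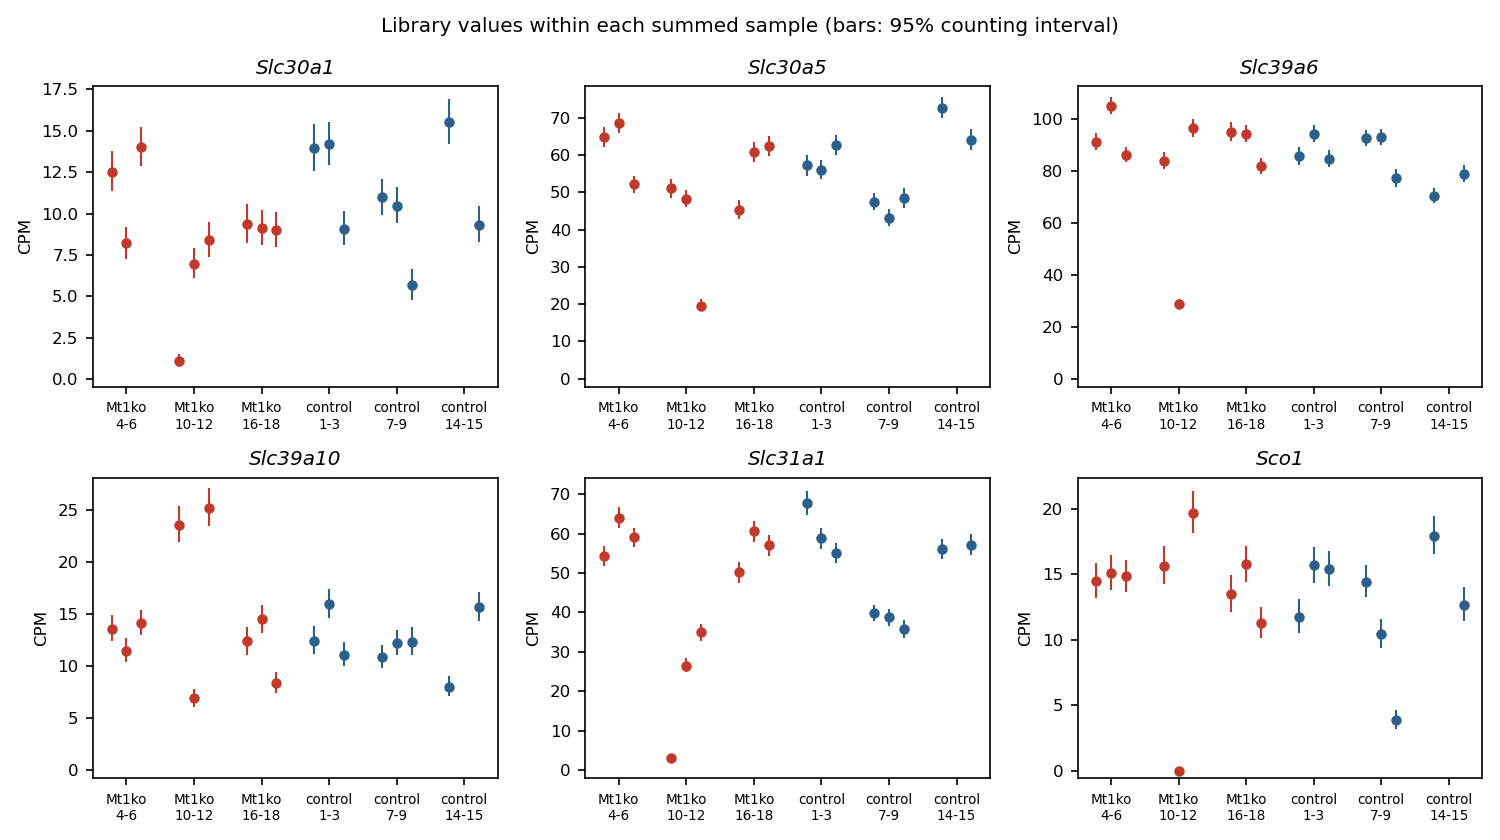
CPM of single libraries within each summed sample for 6 members, Mt1ko samples in red left of control samples in blue; bars are 95% counting intervals. Within Mt1ko 10-12 a different library is low in different genes: library 10 for Slc30a1 and Slc31a1, library 11 for Slc39a6, Slc39a10 and Sco1, and library 12 for Slc30a5.

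The second index sequence in the library descriptions divides the libraries across both groups, and values were also compared within it. Among libraries with the first index (3 Mt1ko, 5 control), Slc39a9 averaged 56.4 CPM in Mt1ko and 51.8 CPM in control libraries, and with the second (4 Mt1ko, 3 control) 52.4 CPM in Mt1ko and 47.1 CPM in control libraries. Slc39a10 averaged 13.1 CPM in Mt1ko and 12.5 CPM in control libraries with the first index, and 17.0 CPM in Mt1ko and 12.0 CPM in control libraries with the second. Cox17, Slc30a1, Slc39a14 and Ccs likewise kept their direction in both, although Slc30a1 averaged 11.6 CPM in Mt1ko and 11.7 CPM in control libraries with the first index and 6.45 CPM in Mt1ko and 10.2 CPM in control libraries with the second. Mtf1 differed in direction, at 55.7 CPM in Mt1ko and 53.2 CPM in control libraries with the first index and 40.6 CPM in Mt1ko and 49.3 CPM in control libraries with the second. The remaining index held 2 Mt1ko libraries and no control. All 3 Mt1ko libraries of the first index belong to the summed sample 4-6, library 6 included, and 3 of the 4 of the second belong to sample 10-12, so these means rest on little more than 1 Mt1ko sample each.

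A wider list of 56 zinc, copper and manganese genes showed the same absence of calls. Of these, 55 were in the count tables and 44 were tested; 0 were called, 27 log2 fold changes were above 0 and 17 below, and the median was 0.04. Only Mt1, which is on this list, had an unadjusted edgeR p under 0.05. Its neighbour Mt2 stood at 72.0, 53.9 and 81.7 CPM in Mt1ko samples 4-6, 10-12 and 16-18, against 80.2, 105 and 94.0 CPM in control samples 1-3, 7-9 and 14-15, a log2 fold change of -0.43 (SE 0.19). In the COMMD complex, which works with COMMD1 in recycling copper pumps through endosomes, 9 of 12 tested genes were above 0 and 3 below, with a median of 0.09. Commd3 stood at 66.9, 69.9 and 65.6 CPM in Mt1ko samples, against 62.5, 60.7 and 60.2 CPM in control samples, a log2 fold change of 0.14 (SE 0.12). Every Mt1ko sample of Commd3 lay above every control, as in 2.74% of all genes tested, and the gene was not called. Of 7 further factors of cytochrome oxidase assembly, 2 were above 0 and 5 below, with a median of -0.16.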

How the data were processed

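Total RNA of bone marrow was extracted with an RNeasy Micro kit with DNase digestion and made into libraries with a stranded SMARTer Pico v2 kit, per the labels' protocols. The submitters' processing notes name RSEM 1.3.3, Trimmomatic 0.35 and the build GRCm38 (mm10), without settings or strand. The values deposited by the authors are raw whole-number counts of 17 libraries and of 6 summed columns, which equalled the sums of their libraries with 0 genes differing. Titles run from 1 to 18, and library 13 was not analysed here. Of 56305 identifiers, 55227 matched GENCODE vM21, the source of coordinates and exon lengths. Where a symbol had several identifiers, the first with the highest total was used.

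The 6 summed samples, 3 Mt1ko and 3 control, entered the quasi-likelihood test of edgeR 4.0.16 under R 4.3.3 (genes kept by filterByExpr, TMM scaling, two-sided, group alone in the model), with Benjamini-Hochberg adjustment over 16666 genes and a call at an adjusted p under 0.05. The test was checked on simulated data. CPM of summed samples are TMM-scaled, with a factor of 0.852 in Mt1ko 10-12 and 1.00 to 1.05 in the others, and CPM of single libraries are relative to all counts. Standard errors are the log2 fold change over the root of F, and 95% intervals use a t quantile of 2.32. Values in every sample are given for members averaging at least 10 CPM, and full statistics for the 3 members with the smallest p in each direction, Mtf1, Slc30a1 and Slc39a10. The members, the lists and the rule were chosen with earlier results of these data known. Commd3 was named after its values were seen. Other settings tried were upper quartile and RLE scaling, a stricter filter and none, DESeq2 1.42.0, limma-voom 3.58.1, the 17 libraries singly, with the second index as covariate or with the sample as random effect, library 6 left out, an adjusted p under 0.10, the longest transcript as length, and leaving out each summed sample. Summing both identifiers of Slc30a1, and counting members without Mt1ko 10-12, were chosen after seeing the data.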

Additional observations from a re-analysis of the deposited data

Results flagged for a closer look

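The spread of library values was examined in 42 sets (a gene in the libraries of 1 group). In 4 sets a single library lay far from the others. Chance alone gives this in about 1 in 20 sets of independent values, but libraries of the same summed sample are not independent. Mt1 was 326.2 CPM (12606 counts) in library 6, which is labelled Mt1ko, and no other library so labelled exceeded 87.2 CPM. Slc30a5 was 19.6 CPM (588 counts) in library 12, labelled Mt1ko, where the next lowest Mt1ko library held 45.3 CPM. Slc39a6 was 28.9 CPM (962 counts) in library 11, labelled Mt1ko, where the next lowest held 81.7 CPM. Sco1 had 0 counts in library 11, where the next lowest Mt1ko library held 11.3 CPM. Libraries 11 and 12 belong to Mt1ko 10-12, the sample with 21.9% to 30.2% mitochondrial ribosomal RNA, and the part of that share in these values was not tested.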

How the results depend on the processing

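Over every alternative run, 0 members were called and 0 had an unadjusted p under 0.05. The lowest adjusted p of any member under any of them was 0.98. Over all genes, 1 gene (Mt1) was called with DESeq2, with 17 libraries singly, with the sample as random effect and with library 6 left out, against 0 with edgeR on the 6 samples, and 0 when any summed sample was left out. When each summed sample was left out, the median log2 fold change of the members tested in that run lay between -0.0814 and 0.0926. With each summed sample left out, log2 fold changes ranged from 0.15 to 0.31 for Slc39a9, 0.08 to 0.26 for Cox17, 0.06 to 0.55 for Slc39a10, -0.52 to -0.15 for Ccs, -0.51 to -0.09 for Slc30a1, -0.34 to 0.06 for Slc39a14 and -0.08 to 0.10 for Mtf1, and the cause was not tested. Slc39a9, Slc39a10, Cox17, Ccs and Slc30a1 kept their direction in all 16 alternatives and Mtf1 in 10 of them. Slc30a1 stood at 4.17 CPM per kilobase in control samples with both identifiers summed. No paired analysis was run, because the labels pair no Mt1ko sample with a control sample. Control 7-9 and Mt1ko 10-12, neighbours in number, were together lowest in 12 of 28 members. Whether neighbouring samples are related was not stated, and variation they may share was left in the standard errors. The 6 untested members had too few counts for the filter, which does not show that they are absent. For 8 tested members the interval did not exclude a 2-fold difference between the summed samples of the groups.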
